A study of Mus musculus with 6 samples.

Results

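The 27 genes described here encode enzymes of cholesterol synthesis, a carrier of free sterol and the proteins that set the activity of Srebf2, the gene of the transcription factor SREBP-2. They are listed by name, out of 24394 gene symbols in the files. The rule itself uses no measured value, but the list was drawn up with earlier results of these data known. RNA-seq was performed on bone marrow-derived macrophages (BMMs) of male C57BL/6 mice at postnatal day 28. Bone marrow monocytes were isolated with a kit and grown into macrophages with 50 ng/ml of the growth factor M-CSF for 7 days, a step that both groups shared. Control BMMs, 3 libraries, were cultured without fragments. The stimulated group, also 3 libraries, was cultured for 24 hours with cartilage fragments at a ratio of 5 fragments to 1 macrophage. The fragments came from the femoral heads of the same mice. The series is titled as human, whereas its organism and strain labels are mouse. As each library came from a bulk culture, fewer cells of a type and less RNA per cell cannot be told apart.

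Cholesterol is built from acetyl-CoA through mevalonate, farnesyl diphosphate, squalene and lanosterol. SREBP-2 is made as a precursor in the membrane of the endoplasmic reticulum, bound to the escort protein Scap. When membrane sterol is low, Scap carries it to the Golgi, where the proteases encoded by Mbtps1 and Mbtps2 release the part that enters the nucleus and switches on the genes of synthesis and uptake. When sterol is plentiful, the Insig proteins hold Scap back. Macrophages also take up cholesterol with the debris that they engulf. Intermediates of the synthesis pathway supply prenyl groups and ligands of the LXR receptors.

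SREBP-2 binds the sterol regulatory element (SRE) of its target promoters together with factors such as NF-Y, which binds CCAAT boxes, and Sp1, which binds GC boxes. RefSeq promoter windows (GRCm38.p6) of 300 bases, from 250 before to 50 after the gene start, were at hand for 23 of the 27 genes in 29 windows, and Sqle, Fdft1, Fdps and Stard4 were not covered. The letters TCACNCCA, taken for the SRE and searched on both strands, were found in the windows of Hmgcs1, Msmo1 and Srebf2. These are 3 of 23 genes (13.0%), beside 4.49% of the 7997 tested symbols with a window and 4.97% of all 27025 symbols with a window. CCAAT was found on either strand in 19 of 23 genes (82.6%), beside 42.5% of tested symbols. The GC box letters GGGCGG were found in 20 of 23 (87.0%), beside 69.9% of tested symbols. No SRE match overlapped a CCAAT match in these windows. A match describes the letters of the window and is not a measured binding site. The 250 bases before the start are shown for the 3 genes with an SRE match and for Nsdhl, whose levels in the groups stood far apart but whose window held none. The windows are chr13:119690101-119690350 on the plus strand for Hmgcs1, chr8:64733579-64733828 on the minus strand for Msmo1, chr15:82147019-82147268 on the plus strand for Srebf2 and chrX:72918271-72918520 on the plus strand for Nsdhl. All are written 5′ to 3′, and capitals mark the SRE letters and the CCAAT boxes, which read ATTGG where they lie on the opposite strand.
Hmgcs1: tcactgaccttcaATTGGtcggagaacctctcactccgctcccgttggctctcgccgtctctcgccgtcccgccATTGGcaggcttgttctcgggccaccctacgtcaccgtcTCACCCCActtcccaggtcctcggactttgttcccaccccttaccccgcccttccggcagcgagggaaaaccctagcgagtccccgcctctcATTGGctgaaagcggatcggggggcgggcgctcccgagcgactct
Msmo1: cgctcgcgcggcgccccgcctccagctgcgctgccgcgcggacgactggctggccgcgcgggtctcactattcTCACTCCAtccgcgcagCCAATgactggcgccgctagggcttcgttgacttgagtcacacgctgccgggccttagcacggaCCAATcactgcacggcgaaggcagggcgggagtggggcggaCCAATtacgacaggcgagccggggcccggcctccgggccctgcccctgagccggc
Srebf2: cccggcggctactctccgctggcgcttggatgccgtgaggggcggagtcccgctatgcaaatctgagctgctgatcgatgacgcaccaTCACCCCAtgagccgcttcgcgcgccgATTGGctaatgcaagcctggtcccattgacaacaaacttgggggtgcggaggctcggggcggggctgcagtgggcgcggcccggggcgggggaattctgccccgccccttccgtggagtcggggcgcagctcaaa
Nsdhl: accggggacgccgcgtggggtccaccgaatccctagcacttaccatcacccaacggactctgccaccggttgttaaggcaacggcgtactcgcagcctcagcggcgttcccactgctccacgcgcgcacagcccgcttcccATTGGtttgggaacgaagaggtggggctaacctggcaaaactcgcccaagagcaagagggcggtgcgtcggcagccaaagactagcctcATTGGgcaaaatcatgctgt
Counted from the gene start as 0, the SRE letters began at base -137 in Hmgcs1, -177 in Msmo1 and -162 in Srebf2, in each case on the strand of the gene. Within the bases shown, CCAAT was present 3 times for Hmgcs1, 3 times for Msmo1, 2 times for Nsdhl and 1 time for Srebf2.

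Levels are given as FPKM, fragments per kilobase of transcript scaled to the mapped fragments of the library, summed over the transcripts of a gene. They may thus be compared between genes per length, except where short assembled transcripts, described below, can raise the sum. Depth, as estimated from the files, was low. The files held estimated totals of 743000 to 776000 fragments in control and 699000 to 754000 in stimulated libraries, with medians of 757000 and 723000. These totals, derived from the deposited coverage and FPKM, lie far below the number of mapped reads per sample that the study states. The reason for this was not tested. A tested member had a median of 130 fragments over the 6 libraries together (range 33.2 to 422), and 8 of 25 had fewer than 100. Of 24394 symbols, 10393 had a mean of at least 1 FPKM and were tested with limma on log2(FPKM + 0.1). The difference on this scale, stimulated minus control, is given with its standard error (SE) and with a p-value adjusted over all tested symbols by the Benjamini-Hochberg method, called at 0.05. Since the labels do not say whether the 3 libraries of a group came from separate cultures, the p-values measure the spread between these libraries.

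Most genes of cholesterol synthesis were slightly higher in BMMs cultured with cartilage fragments, but no gene of the 27 passed the limma test used here. The study's own comparison of these libraries, made with the program Cuffdiff, listed Msmo1, alone of the members, as significantly higher. Why the methods differ was not tested. Of the 25 tested members, 20 had a log2 difference above 0, beside 50.5% of all tested symbols, and their median was 0.30, beside 0.00365 for all tested symbols. This median was 0.18 without stimulated replicate 1, 0.17 on scaled fragments and 0.16 from reference transcripts only. By limma with adjusted p, 0 members were called higher and 0 lower, beside 0.308% of tested symbols called higher (32) and 0.0577% called lower (6). At an unadjusted p under 0.05, 3 members were higher (Nsdhl, Msmo1 and Fdps) and 0 lower, beside 5.39% of tested symbols higher and 3.80% lower. All 3 stimulated libraries lay above all 3 controls for 7 of 25 members (Hmgcs1, Mvd, Cyp51, Msmo1, Nsdhl, Hsd17b7 and Srebf2), beside 9.04% of tested symbols. None lay wholly below the controls, beside 6.89% of tested symbols. The number above the controls was 6 with equal totals, on scaled fragments and from reference transcripts only, where the groups of Srebf2 overlapped. Members share regulators and libraries, so that these counts are not independent of each other. When estimated fragments scaled to the library replaced FPKM, 1.33% of tested symbols were called higher and 0.751% lower, and again 0 members in either direction.

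**Figure D1:**
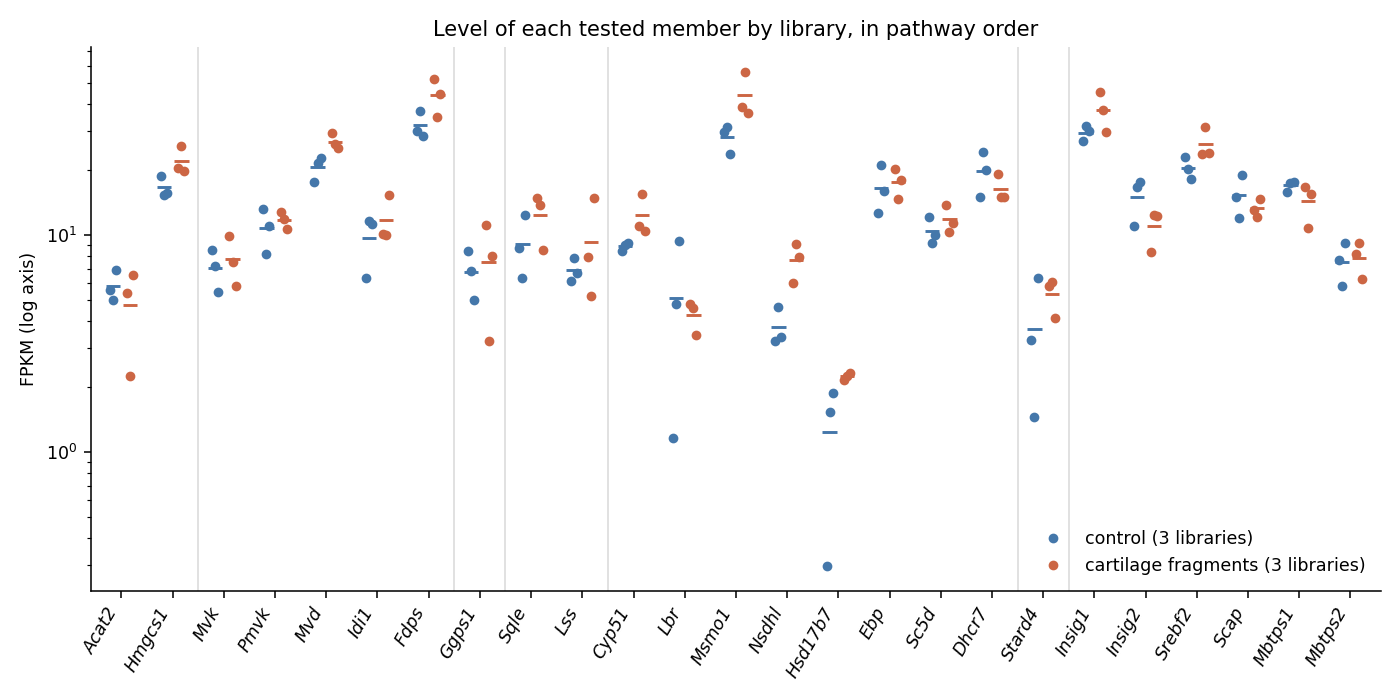
FPKM (log axis) of the 25 tested members in each of the 3 control (blue) and 3 stimulated (orange) libraries, in pathway order, with short lines at the group means and grey lines between the steps of the pathway. Fdps and Msmo1 were the highest of the enzymes and Hsd17b7 the lowest, and the groups of most genes overlapped.

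The enzymes were also described by their summed level, for which no test was made. Summed over the 18 tested enzymes, the FPKM were 206, 233 and 219 in control replicates 1 to 3 and 289.6, 268 and 264 in stimulated replicates 1 to 3, with no overlap of the groups. Fdps and Msmo1, as the most abundant, weigh most in this sum. The mean log2 value over the same enzymes was 3.01, 3.30 and 3.32 in controls and 3.63, 3.40 and 3.52 in stimulated libraries. Here too the groups did not overlap, although control replicate 3 and stimulated replicate 2 lay close to each other. The low mean of control replicate 1 rested in part on Hsd17b7 at 0.298 FPKM and Lbr at 1.17 FPKM, from about 1 and 3 fragments. Of these 18 enzymes, 16 had a difference above 0 and 2 below, with a median of 0.30 and a range of -0.41 to 1.11. Taking all libraries together, Fdps (mean 38.0 FPKM) and Msmo1 (36.1 FPKM) were the most abundant, followed by Mvd (23.7 FPKM), Hmgcs1 (19.2 FPKM), Dhcr7 (18.0 FPKM) and Ebp (17.0 FPKM). Pmvk, Sc5d, Idi1, Sqle and Cyp51 followed between 11.3 and 10.6 FPKM, a range smaller than the spread of any of them between libraries. The rest lay lower, with Lss at 8.09 FPKM, Mvk at 7.40, Ggps1 at 7.10, Nsdhl at 5.70, Acat2 at 5.28, Lbr at 4.69 and Hsd17b7 at 1.73 FPKM.

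At the head of the pathway, Acat2 encodes a thiolase that joins acetyl-CoA units, and Hmgcs1 the synthase that adds the next one to give HMG-CoA. Hmgcs1 (chr13:119690351-119708260 in mm10, plus strand) had 18.7, 15.3 and 15.6 FPKM in controls and 20.3, 25.8 and 19.6 FPKM in stimulated libraries. Every stimulated library was above every control, the nearest pair being stimulated replicate 3 and control replicate 1. The log2 difference was 0.40 (SE 0.185) with an adjusted p of 0.575 by limma. Acat2 had 5.56, 5.01 and 6.90 FPKM in controls and 5.39, 2.25 and 6.57 FPKM in stimulated libraries. The groups overlapped, and stimulated replicate 2, with about 3 fragments, was the lowest library. Its log2 difference was -0.41 (SE 0.414), the lowest of the enzymes, with an adjusted p of 0.806 by limma.

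All 5 genes from mevalonate to farnesyl diphosphate had differences above 0, with a median of 0.30, and 1 of them, Mvd, had groups that did not overlap. Mvd, the decarboxylase that makes isopentenyl diphosphate, had 17.5, 21.5 and 22.7 FPKM in controls and 29.4, 26.1 and 25.1 FPKM in stimulated libraries. The lowest stimulated library was only slightly above the highest control. The log2 difference was 0.39 (SE 0.169) and the adjusted p 0.543 by limma. Fdps, which builds farnesyl diphosphate, the branch point towards sterols and prenylated proteins, had 30.0, 37.4 and 28.7 FPKM in controls and 52.1, 35.1 and 44.6 FPKM in stimulated libraries. Stimulated replicate 2 lay below control replicate 2, so that the groups overlapped. Its log2 difference was 0.45 (SE 0.189, unadjusted p 0.0458, adjusted p 0.534 by limma). Idi1, the isomerase of isopentenyl diphosphate, had 6.35, 11.6 and 11.2 FPKM in controls and 10.1, 9.99 and 15.2 FPKM in stimulated libraries, a log2 difference of 0.30 that rested on a low control replicate 1 and a high stimulated replicate 3. Mvk and Pmvk, the kinases that phosphorylate mevalonate in turn, had smaller differences of 0.12 and 0.14 with overlapping groups. Ggps1, which makes geranylgeranyl diphosphate for protein prenylation, had 8.40, 6.79 and 5.02 FPKM in controls and 11.2, 3.23 and 8.01 FPKM in stimulated libraries. Both the highest and the lowest value were those of stimulated libraries, and the log2 difference was 0.01 (SE 0.451), with a sign that changed with the scaling.

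From squalene onwards, Sqle encodes the epoxidase that commits squalene to sterols and Lss the cyclase that forms lanosterol. Sqle had 8.69, 6.31 and 12.3 FPKM in controls and 14.8, 13.8 and 8.53 FPKM in stimulated libraries. Stimulated replicates 1 and 2 were above all controls and replicate 3 was not, with a log2 difference of 0.45 (SE 0.315) and an adjusted p of 0.716 by limma. It was 0.22 without control replicate 2 and 0.70 without stimulated replicate 3. Lss is described below with the transcripts that carry no symbol. Fdft1, the synthase of squalene itself, was listed at 0 in all 6 libraries. It shares 773 bases with Ctsb, a lysosomal protease gene at 1660 to 1843 FPKM, and the part of this overlap in the value of 0 was not tested. No statement on the level of squalene synthase can therefore be drawn from the files.

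The steps from lanosterol to cholesterol held the most genes with separate groups, 4 of 8 tested (Cyp51, Msmo1, Nsdhl and Hsd17b7), and 7 of the 8 had a difference above 0. Cyp51, the lanosterol demethylase, had 8.46, 9.02 and 9.17 FPKM in controls and 11.0, 15.5 and 10.5 FPKM in stimulated libraries. Its controls were close together and all below the stimulated libraries, with a log2 difference of 0.45 (SE 0.218) and an adjusted p of 0.588 by limma. Msmo1, Nsdhl and Hsd17b7 encode the oxidase, the decarboxylating dehydrogenase and the ketone reductase that act in sequence to remove the methyl groups at carbon 4 of the sterol ring, and all 3 had groups that did not overlap. This trio was picked out after its values were seen.

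Msmo1 (chr8:64718145-64733578, minus strand) had 29.7, 31.4 and 23.5 FPKM in controls and 39.0, 56.3 and 36.6 FPKM in stimulated libraries. Stimulated replicate 2 was far above the rest, and the other two were still above every control. The log2 difference was 0.62 (SE 0.206, unadjusted p 0.0163), and the adjusted p by limma was 0.394. From the estimated fragments, 153 in stimulated and 103 in control libraries, the ratio per library size was 1.55 with an exact 95% interval of 1.20 to 2.01 that covers counting error only. Nsdhl (chrX:72918521-72958528, plus strand) had 3.23, 4.65 and 3.37 FPKM in controls and 6.00, 9.05 and 7.90 FPKM in stimulated libraries. Here the groups were well apart, and the difference of 1.01 (SE 0.283) had the lowest unadjusted p of the 25 members, 0.0074, with an adjusted p of 0.273 by limma. It rested on 33 fragments in stimulated and 17 in control libraries, a ratio of 2.03 with a counting interval of 1.10 to 3.89. Hsd17b7 had 0.298, 1.53 and 1.87 FPKM in controls and 2.15, 2.24 and 2.32 FPKM in stimulated libraries. Stimulated values were nearly equal, while control replicate 1 was far below the other controls. Its log2 difference of 1.11 (SE 0.746, adjusted p 0.702 by limma) was the largest of the members and had the widest interval, -0.61 to 2.83, with 21 and 12 fragments behind it. Without control replicate 1, it was 0.38.

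The remaining enzymes of these steps had overlapping groups. Ebp, the sterol isomerase, had 12.7, 20.9 and 15.9 FPKM in controls and 20.1, 14.6 and 17.9 FPKM in stimulated libraries, a log2 difference of 0.10. Sc5d, the sterol desaturase, had 12.1, 9.16 and 9.97 FPKM in controls and 13.8, 10.3 and 11.3 FPKM in stimulated libraries, a log2 difference of 0.18. Of the pair of genes for the sterol C14 reductase, Lbr, which also anchors chromatin to the nuclear membrane, varied most between controls, at 1.17, 4.79 and 9.34 FPKM, against 4.81, 4.60 and 3.46 FPKM in stimulated libraries. The mean was lower in stimulated libraries, at 4.29 FPKM against 5.10, whereas the log2 difference was 0.16 (SE 0.666), and the sign thus depended on the scale. Tm7sf2, the other of the pair, was listed at 0 in 5 libraries and at 2.77 FPKM in stimulated replicate 1, from about 3 fragments, and was not tested. Dhcr7, the reductase of the last step in one branch of the pathway, was 1 of the 2 enzymes with a difference below 0 and is given below.

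**Figure D2:**
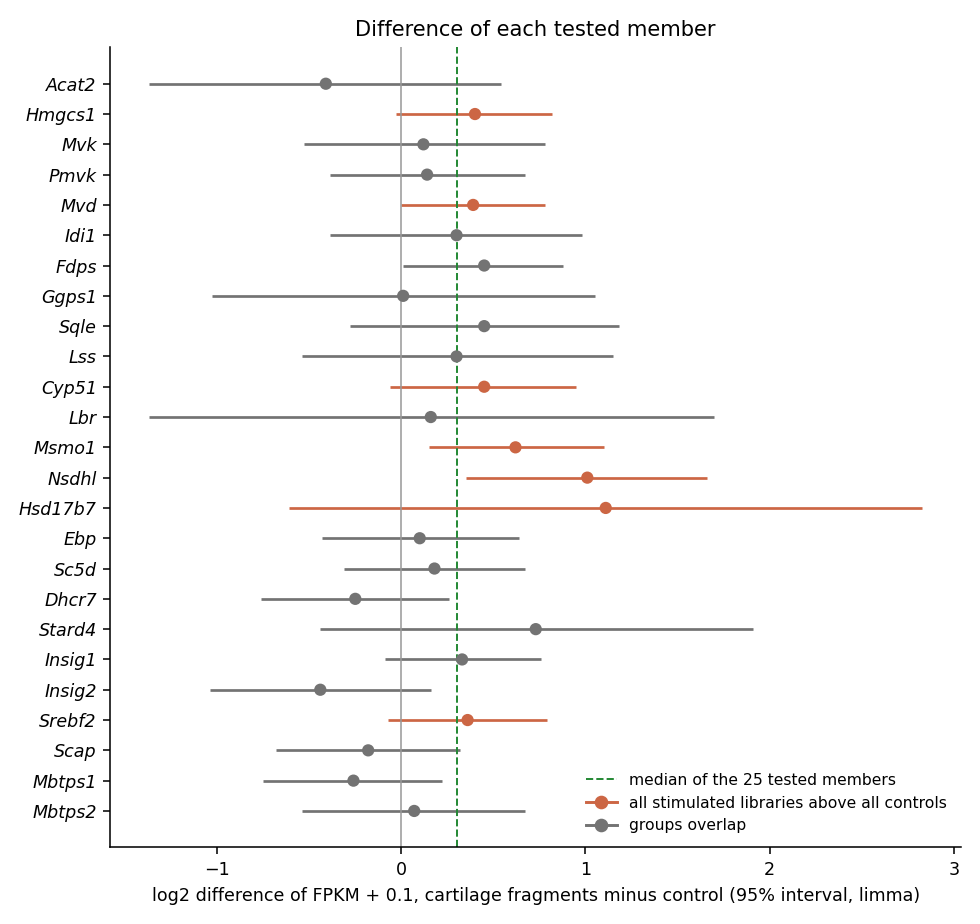
Log2 difference of FPKM + 0.1, stimulated minus control, of each tested member with its 95% interval from limma, in pathway order. Orange marks the 7 genes whose groups did not overlap, and the dashed line marks the median of the members, 0.30. The intervals of Fdps, Msmo1 and Nsdhl lay wholly above 0, before adjustment over all tested symbols.

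Among the 6 tested regulators, 3 had a difference above 0 and 3 below, with a median of -0.06, and 1, Srebf2, had groups that did not overlap. The genes of the pair of sterol sensors that retain Scap had differences of opposite sign. Insig1, itself a target of SREBP-2, had 26.99, 31.7 and 30.0 FPKM in controls and 45.6, 37.8 and 29.8 FPKM in stimulated libraries. Stimulated replicates 1 and 2 were above all controls and replicate 3 was among them, with a log2 difference of 0.33 (SE 0.185) and an adjusted p of 0.645 by limma. Insig2, which is not driven by SREBP-2 in the same way, had 11.0, 16.6 and 17.5 FPKM in controls and 8.36, 12.4 and 12.2 FPKM in stimulated libraries. The groups overlapped through control replicate 1, the log2 difference was -0.44 (SE 0.259), the lowest of all members, and the adjusted p was 0.656 by limma. Whether the differences of Insig1 and Insig2 differ from each other was not tested.

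Srebf2 had 22.9, 20.2 and 18.1 FPKM in controls and 23.7, 31.5 and 23.8 FPKM in stimulated libraries. All stimulated libraries were above all controls, but stimulated replicate 1 exceeded control replicate 1 only slightly, and the log2 difference of 0.36 (SE 0.185) had an adjusted p of 0.602 by limma. With equal totals, on scaled fragments and from reference transcripts only, the groups of Srebf2 overlapped. Scap had 14.9, 12.0 and 18.9 FPKM in controls and 13.0, 12.1 and 14.7 FPKM in stimulated libraries, a log2 difference of -0.18. Mbtps1, the first of the activating proteases, had 15.9, 17.3 and 17.6 FPKM in controls and 16.7, 10.8 and 15.5 FPKM in stimulated libraries. Its log2 difference of -0.26 (SE 0.210) rested on stimulated replicate 2, and without that library it was -0.07. Mbtps2, the second protease, had 7.64, 5.81 and 9.17 FPKM in controls and 8.17, 9.13 and 6.29 FPKM in stimulated libraries, a log2 difference of 0.07. Stard4, a soluble carrier that moves cholesterol between membranes and a target of SREBP-2, had 3.27, 1.44 and 6.35 FPKM in controls and 5.79, 6.04 and 4.16 FPKM in stimulated libraries. Its log2 difference was 0.73 (SE 0.510, adjusted p 0.714 by limma), and control replicate 3 was the highest of all 6. Without control replicate 2 the value was 0.20, and without control replicate 3 it was 1.23.

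For 5 members, part of the signal stood on transcripts assembled in a single library, which carry no gene symbol in the files but share the gene identifier of the member. Dhcr7 shows the effect most plainly. Its reference transcript was listed at 0 in control replicate 3 and stimulated replicate 1, where an assembled transcript of the same gene had 19.9 and 19.0 FPKM. With both kinds summed, Dhcr7 had 14.9, 24.1 and 19.9 FPKM in controls and 19.0, 15.0 and 15.0 FPKM in stimulated libraries. On this sum the groups overlapped and the log2 difference was -0.25 (SE 0.222, adjusted p 0.779 by limma). For Lss the reference transcript was at 0 in control replicate 2, where an assembled transcript had 7.86 FPKM, and stimulated replicate 3 had a further 7.79 FPKM of this kind. Its sums were 6.16, 7.86 and 6.66 FPKM in controls and 7.88, 5.25 and 14.7 FPKM in stimulated libraries, and the log2 difference of 0.30 (SE 0.367) rested on stimulated replicate 3, without which it was -0.09. That library had 14.7 FPKM from about 41.2 fragments, whereas stimulated replicate 1 had 7.88 FPKM from about 36.3. From reference transcripts alone the value of Lss was 2.05, with a control at 0, and on scaled fragments it was 0.10. In Srebf2, stimulated replicate 2 had 10.6 FPKM on the reference transcript and 6.44 and 14.4 FPKM on assembled ones. Its sum of 31.5 FPKM came from about 69.3 fragments, whereas stimulated replicate 1 had 23.7 FPKM from about 77.5. From reference transcripts alone the log2 difference of Srebf2 was -0.16, that is, of the opposite sign, and from scaled fragments it was 0.19. Insig1 had assembled transcripts of 5.94 FPKM in control replicate 1 and 13.7 FPKM in stimulated replicate 3, and its log2 difference was 0.16 from reference transcripts alone. Scap had one of 6.67 FPKM in control replicate 3, and from reference transcripts alone its log2 difference was 0.03.

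**Figure D3:**
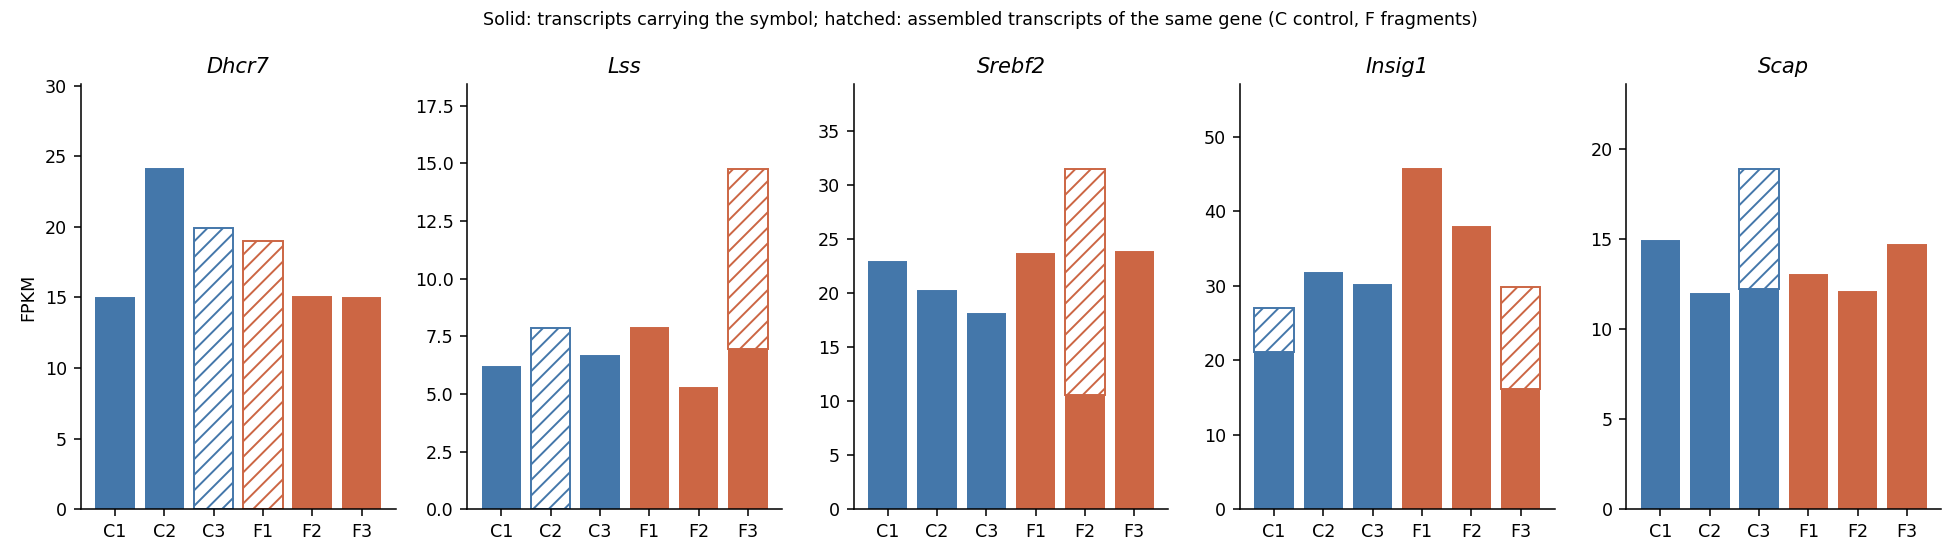
FPKM of 5 members in control (C, blue) and cartilage fragment (F, orange) libraries, split into transcripts that carry the gene symbol (solid) and assembled transcripts of the same gene (hatched), with each panel on its own axis from 0. Dhcr7 in C3 and F1 and Lss in C2 stood wholly on assembled transcripts, and Srebf2 in F2 mostly so.

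Which transcript carried the level could be followed in the 8 tested members with at least 2 reference transcripts. Pmvk was the single one of them in which the groups used different transcripts throughout. NM_026784 had 13.2, 8.17 and 11.0 FPKM in controls and 0 in all stimulated libraries. NM_027348 had 0 in all controls and 12.7, 11.8 and 10.6 FPKM in stimulated libraries. The sum of both changed little, with a log2 difference of 0.14 (SE 0.229). In the GENCODE annotation of this build, the transcripts differ in their first exon, which spans chr3:89459118-89459464 (347 bases) in NM_026784 and chr3:89459571-89459886 (316 bases) in NM_027348, while exons 2 to 4 are the same. The coding part of the first exon has 95 and 32 bases, so that the encoded proteins begin differently. A complete exchange of this kind was found in 12 of 3212 tested symbols with at least 2 reference transcripts (0.374%). Only 24 fragments in each group lay behind Pmvk, and Cufflinks divides fragments of shared exons by estimation. In Mvk, Insig2 and Scap a single reference transcript likewise took the whole reference value in every library, but the transcript did not divide by group. Mvk stood on NM_001306205 in control replicate 1 and on NM_023556 in the remaining libraries.

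**Figure D4:**
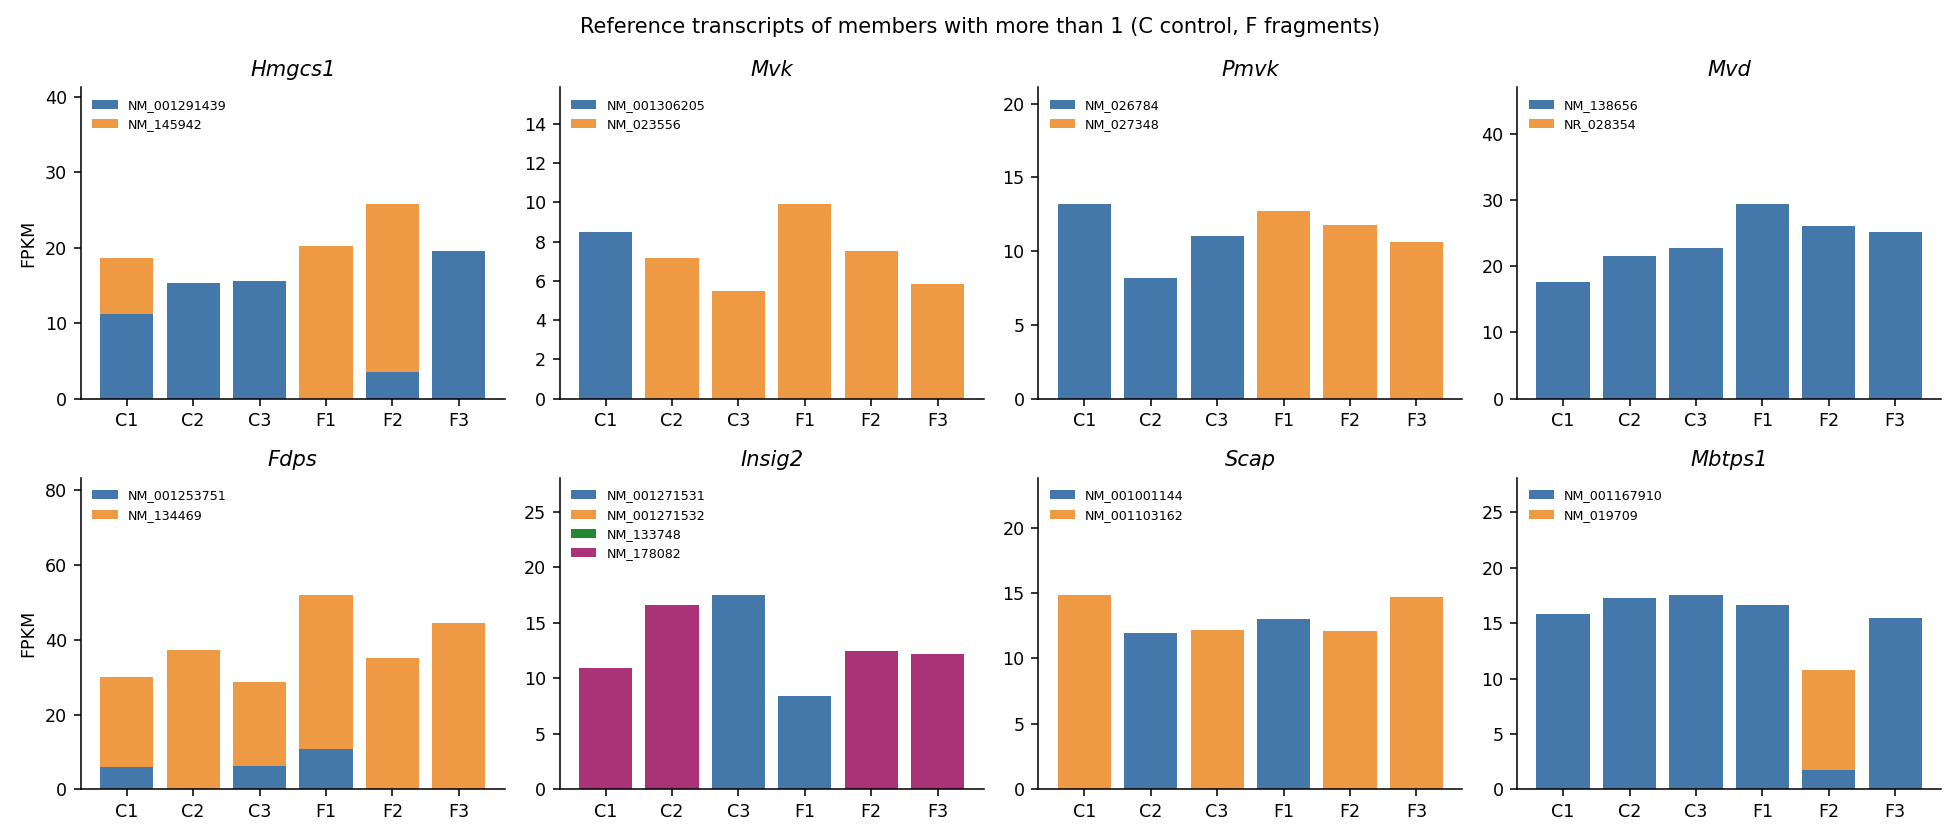
FPKM of each reference transcript (colours, named in each panel) of the 8 tested members with more than 1, in control (C) and cartilage fragment (F) libraries, stacked from 0. In Pmvk the controls stood on NM_026784 and the stimulated libraries on NM_027348, whereas the transcripts of the other 7 genes did not divide by group.

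Genes that serve the same pathway from outside it were compared as lists. Among 4 electron donors of the sterol oxygenases, 2 were above and 2 below 0, with 0 called by limma and 1 lower at an unadjusted p under 0.05. Por, the reductase that feeds electrons to Cyp51 and Sqle, had 141, 150.3 and 149 FPKM in controls and 115, 125 and 114 FPKM in stimulated libraries. Its groups were apart in the opposite direction to those of Cyp51, with a log2 difference of -0.31 (SE 0.0858, unadjusted p 0.00654, adjusted p 0.266 by limma). On scaled fragments Por was called lower, with an adjusted p of 0.0425 by limma, which is the lowest of its alternatives (0.0425 to 0.61). Cyb5a, cytochrome b5, which serves Msmo1 and Sc5d, had 346, 377 and 332 FPKM in controls and 329, 322 and 246 FPKM in stimulated libraries, a log2 difference of -0.25. Its groups too were apart, by a small gap between control replicate 3 and stimulated replicate 1. Of the fatty acid list, the neighbouring branch driven by the related factor SREBP-1, 13 of 16 genes were tested, and 10 were above 0, with a median of 0.13. Groups were apart for 4 of these 13, all higher, beside 7 of the 25 members, so that groups apart were not particular to the members. By limma 0 of the fatty acid genes were called, and at an unadjusted p under 0.05 there was 1 higher and 0 lower. Acss2, which makes acetyl-CoA from acetate, had 5.44, 4.58 and 3.62 FPKM in controls and 7.66, 6.39 and 8.25 FPKM in stimulated libraries, a log2 difference of 0.71 (SE 0.261) with groups apart. Fads2, a fatty acid desaturase and another of the 4, rested on only 5 fragments in all stimulated and 3 in all control libraries. The ratio was 1.74 with a counting interval of 0.339 to 11.2. Stimulated replicate 1 at 3.10 FPKM carried the difference of 0.56, which was 0.09 without it. The other stimulated libraries were at 1.08 and 1.11 FPKM against 0.998, 1.03 and 1.04 FPKM in controls. At so few fragments, this separation of the groups carries little weight.

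The genes that use isoprenoids outside sterols gave 4 above and 7 below 0 of 11 tested and a median of -0.04. None was called by limma, and 1 was lower at an unadjusted p under 0.05. This was Pggt1b, a subunit of the protein geranylgeranyl transferase, which had 7.19, 5.81 and 4.83 FPKM in controls and 2.65, 3.87 and 1.14 FPKM in stimulated libraries, a log2 difference of -1.32 (SE 0.460). Only 14 fragments in stimulated and 34 in control libraries lay behind Pggt1b, a ratio of 0.431 with a counting interval of 0.214 to 0.824. Without stimulated replicate 3 the log2 difference was -0.85. Sterol-regulated degradation and COPII transport, the vesicle coat that carries Scap, gave 7 above and 8 below 0 of 15 tested, a median of -0.04, 0 called by limma and 2 lower at an unadjusted p under 0.05. Its named genes were Sec23b, a coat subunit with a log2 difference of -0.43 (SE 0.182), and Sar1a, the GTPase that starts coat assembly, with 0.21 (SE 0.112). The latter was -2.97 from reference transcripts alone. In control replicate 1 and stimulated replicates 1 and 3, Sar1a stood wholly on assembled transcripts, which that value leaves out. Genes of oxysterol formation and sterol binding gave 5 above and 2 below 0 of 7 tested, a median of 0.24, 0 called by limma, and 1 higher and 1 lower at an unadjusted p under 0.05. These were Osbp, an exchanger of sterol for phosphoinositide, with 0.45 (SE 0.185), and Cyp27a1, the mitochondrial sterol hydroxylase, with -0.74 (SE 0.298). In control replicate 3, Cyp27a1 stood wholly on assembled transcripts of 33.3 and 33.5 FPKM. Its difference of 2.90 from reference transcripts alone leaves these out and is no opposite change. Without control replicate 3 the difference was -0.4, and on scaled fragments it was -0.52. The 7 tested proliferation genes had a median of -0.18, with 2 above and 5 below 0, no groups apart, and 0 called by limma or at an unadjusted p under 0.05 in either direction.

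**Figure D5:**
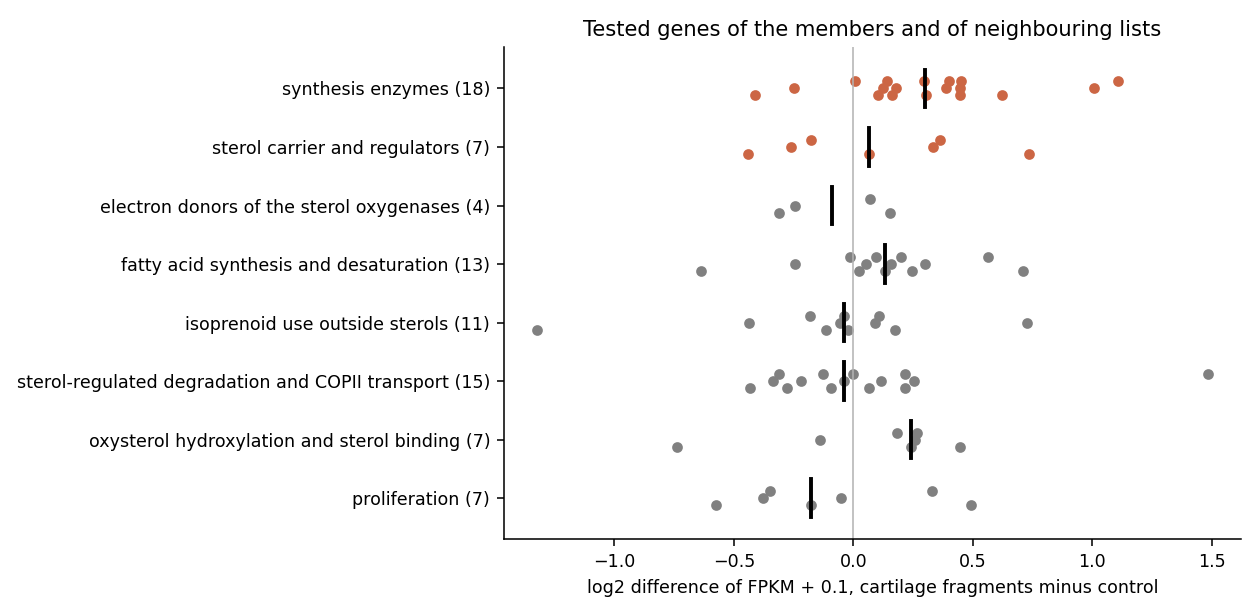
Log2 difference of FPKM + 0.1, stimulated minus control, of each tested gene (points, spread vertically only for visibility) in the synthesis enzymes, the sterol carrier and regulators (both orange) and 6 further lists (grey), with the number tested in brackets and a bar at each median. The enzymes had a median of 0.30 and all but 2 points at or above 0, whereas the medians of the other lists lay between -0.18 and 0.24.

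The libraries had the markers of macrophages, all 8 of which were tested. Of these, Adgre1, a surface receptor of mature macrophages, and Cd14, a co-receptor of bacterial products, were called higher in stimulated libraries, with log2 differences of 0.59 (SE 0.0615) and 0.63 (SE 0.0926), and 0 were called lower. The study's own comparison also listed both as significantly higher. Both calls made here depended on the processing. The adjusted p of Adgre1 by limma was 0.00965, with a range of 2.64e-08 to 0.62 over the alternatives, and the call was lost without moderation by trend, from reference transcripts only, with the replicate block and without stimulated replicate 1 or 2 (0.0815 and 0.0557). That of Cd14 was 0.0388, with a range of 0.000256 to 0.761, and its call was lost under the first 3 of these, with equal totals (0.0635), with quantile normalization (0.0522) and on leaving out any 1 library (0.0557 to 0.2). Chondrocyte markers were near the limit of detection, with none of the 10 measured genes tested, sums of 1.54 to 4.22 FPKM in controls and 1.18 to 2.82 FPKM in stimulated libraries, and 5 listed at 0 everywhere, among them Matn1 and Col9a1. Lymphocyte markers, 4 genes, were at 0 in all libraries. Fibroblast markers summed to 155 to 169.5 FPKM in controls and 103.5 to 119 FPKM in stimulated libraries, with Col1a1 at a log2 difference of -0.72 (SE 0.125, adjusted p 0.0849 by limma) and Col1a2 at -0.41 (SE 0.119). Of the 4 tested, 3 were below 0 and 1 was above, and 0 were called by limma, with 2 lower at an unadjusted p under 0.05, although on scaled fragments Col1a1 and Col1a2 were called lower (adjusted p 1.8e-05 and 0.00661 by limma, in each case the lowest of the alternatives). The 1 above 0 was Dcn, at 3.27, 1.69 and 3.42 FPKM in controls and 4.23, 1.76 and 4.55 FPKM in stimulated libraries. Among osteoclast markers, Acp5 lay at 26.0, 26.8 and 27.1 FPKM in controls and 55.1, 45.2 and 41.6 FPKM in stimulated libraries, and Ctsk, the other tested one, at 23.6, 22.4 and 15.8 FPKM in controls and 13.7, 16.3 and 18.9 FPKM in stimulated libraries. Neither was called by limma, 1 was higher at an unadjusted p under 0.05, and Calcr, a defining marker, was at 0. Neutrophil markers summed to 757 to 873 FPKM in controls and 707 to 1013 FPKM in stimulated libraries. Most of this was S100a8 (250 to 454 FPKM) and S100a9 (329 to 502 FPKM). Camp and Ltf reached 33.2 and 34.3 FPKM, but Mpo and Elane only 1.71 and 1.88 FPKM. Dendritic cell markers summed to 71.9 to 90.2 FPKM in controls and 67.2 to 78.2 FPKM in stimulated libraries. Nearly all of this was Itgax, with Zbtb46 and Ccr7 at no more than 1.55 and 0.815 FPKM and Flt3 at 0. The part of these cell types in the differences of the cholesterol genes was not tested.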

How the data were processed

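Poly(A) RNA of control and stimulated BMMs was sequenced by the authors as stranded 100 bp paired-end libraries, 3 per group. Per the labels and the study's methods, reads were aligned to mm10 with TopHat and Bowtie, and transcripts were assembled and quantified per library with Cufflinks. The study's methods also state normalization by the trimmed mean of M values and the use of Cuffdiff. Besides Msmo1, the study listed Adgre1 and Cd14 as significantly higher, and Por, Col1a1 and Col1a2 as significantly lower. Tool versions were not given in the sources used here. The deposited values are FPKM per transcript, together with coverage and transcript length. Each file lists 34535 reference transcripts with a symbol and 1453 to 1654 transcripts assembled in that library, without symbol, which hold 15.8 to 20.0% of the FPKM.

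FPKM were summed per symbol, including assembled transcripts whose Cufflinks gene held exactly 1 symbol. This choice was made after members listed at 0 had been seen, and reference transcripts alone served as an alternative. The filter kept symbols whose mean reached 1 FPKM, and limma 3.58.1 (moderated with trend and robust options, two-sided) was applied to log2(FPKM + 0.1), which understates the change of low genes. Count models were not used, as FPKM are no counts. As an alternative unit, fragments were estimated from the deposited coverage signal and the transcript length reduced by 210 to 225 bp. Of the values up to 8 fragments in genes of 1 transcript longer than 1000 bp, 93.8 to 94.9% were then within 0.1 of a whole number. The reduction was chosen in each library as the one that made this share highest, so that the share is no independent check. Intervals on ratios of fragments are exact binomial intervals at 95%, and cover counting error only. The tests were checked on simulated data. Alternatives covered pseudocount, filter, scaling, unit, transcripts used, moderation, sample weights, a replicate block and omission of each library.

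The members and lists were chosen with earlier results of these data known. All members are named. Of each other list, the genes past the threshold are named, and where fewer than 2 passed, up to 2 with the largest difference among those whose groups did not overlap. A gene that this rule names is not reported here. Tables were handled in Python 3.11.15 (pandas 2.3.3), and intervals came from scipy 1.17.1. Gene positions are those of the files, counted from 1; 17 of 27 member starts and 18 of 27 ends equalled those of the RefSeq genes.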

Additional observations from a re-analysis of the deposited data

Results flagged for a closer look

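A signal over Tm7sf2 appeared outside the values used above. Assembled transcripts that span Tm7sf2 and its neighbour Vps51 had 4.05 FPKM in stimulated replicate 1 and 6.12 FPKM in stimulated replicate 2, and no control library had an assembled transcript over Tm7sf2. Control replicate 2 had one in the same Cufflinks gene, at 34.2 FPKM from about 12.2 fragments, which covers Vps51 and does not reach Tm7sf2. They belong to a Cufflinks gene that holds both symbols, which share 9 bases, and were therefore not added to Tm7sf2. About 10.7 and 17.3 fragments lay behind them, and how many of these came from Tm7sf2 was not tested.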

How the results depend on the processing

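No member was called under any of the 19 alternatives, the lowest adjusted p by limma being 0.135 for Msmo1 on scaled fragments (0.135 to 0.698 over its alternatives). Of 472 member values, 20 in 10 genes changed sign. The number of symbols called higher was 13 without trend and robust moderation, 15 from reference transcripts only, 17 with the replicate block and 138 on scaled fragments, and those called lower were 1 with the replicate block and 78 on scaled fragments. Same-numbered replicates did not deviate together (r of -0.0179, -0.00237 and 0.00989). These values gave no sign of a pairing, but with so few libraries and fragments they cannot exclude it. Leaving out 1 library gave 9 to 27 higher and 0 to 6 lower symbols, with 9 and 0 without stimulated replicate 1, 15 higher without stimulated replicate 2, 19 higher without control replicate 1 and 3 lower without any 1 of the controls. The median of the members was 0.16 from reference transcripts only, 0.17 on scaled fragments and 0.18 to 0.31 with 1 library left out, the lowest without stimulated replicate 1. Members with groups apart numbered 7 to 9 higher and 0 to 3 lower with 1 library left out. They numbered 6 higher with equal totals, on scaled fragments and from reference transcripts only. From reference transcripts only, signs changed for Srebf2 (-0.16), Scap (0.03), Sar1a (-2.97) and Cyp27a1 (2.90). Sar1a and Cyp27a1 stood wholly on assembled transcripts in some libraries, and this setting leaves such transcripts out. Ggps1 was -0.03 with equal totals, -0.00 with size factors, -0.01 with quantile normalization, -0.01 with sample weights and -0.00 on scaled fragments. With 1 library left out, sign changes gave ranges of -0.71 to 0.04 for Acat2, -0.07 to 0.29 for Ebp, -0.36 to 0.51 for Ggps1, -0.65 to 0.80 for Lbr, -0.09 to 0.64 for Lss, -0.11 to 0.22 for Mbtps2, -0.07 to 0.31 for Mvk and -0.05 to 0.30 for Pmvk. The cause was not tested. The estimated depth limits all members, 8 of which had fewer than 100 fragments in all libraries together.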

Other observations

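Among 3404 other symbols with a mean of at least 20 FPKM, the levels most like the mean log2 value of the 18 enzymes over the 6 libraries were those of Ddost, a subunit of the oligosaccharyl transferase (Pearson r 0.993), Dusp6, a phosphatase of ERK (0.988), Cd2bp2 (0.982), Rab11fip5 (0.98) and Tor3a (0.98). These are descriptions over 6 libraries that share depth and handling, picked as the highest of many. Dusp6 had 15.6, 19.6 and 18.9 FPKM in controls and 24.3, 21.1 and 21.8 FPKM in stimulated libraries, so that control replicate 1 was lowest and stimulated replicate 1 highest, as for the enzymes. Its log2 difference was 0.32 with an adjusted p of 0.627 by limma.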
